A study of Homo sapiens with 7 samples.

Results

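MicroRNA isoforms that start at another base than the annotated mature microRNA were described in wild-type HCT116 cells, a human colorectal carcinoma line. An isoform was included when its 5′ end lay away from the annotated one and it carried at least 10 read counts. By this rule 461 isoforms of 165 microRNA names were included, of 4409 isoforms of 1023 names with a count. The isoforms were thus chosen by the measured 5′ offset and read count, so every value below is a description and none is a test. At the threshold, 24 shifted isoforms carried exactly 10 counts and were included, and 25 carried 9 and were not.

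The study pairs small RNA sequencing of wild-type cells with mRNA sequencing of DROSHA knockout cells, and the mRNA libraries were not used here. The small RNA data are 1 library, made with the TruSeq small RNA kit, of 3627859 counts. It has no replicate, so intervals are Wilson 95% intervals and cover counting error at most, since reads were not collapsed to molecules.

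A microRNA is cut from a hairpin transcript in steps: DROSHA in the nucleus sets the 5′ end of the 5p arm, and DICER in the cytoplasm sets the 5′ end of the 3p arm. A mature microRNA, loaded into an Argonaute protein, finds its messenger RNAs mainly through the seed, bases 2 to 8 from its 5′ end. An isoform that starts 1 base earlier or later therefore presents another seed. An offset of +1 here means that 1 base was lost at the 5′ end, and −1 that 1 base was added there.

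The following sequences show how the seed moved in some of the names that carried many shifted reads or in which shifted reads were the majority. The names with the most shifted counts, miR-3529-3p, miR-151a-3p, miR-3074-5p and miR-3184-5p, are not in this list and are described below. Each annotated sequence stands before its most abundant shifted isoform with a sequence in the reference. They are RefSeq sequences of GRCh38.p14, 5′ to 3′, with the seed in capitals.
miR-29a-3p annotated: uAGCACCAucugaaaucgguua
miR-29a-3p −1: cUAGCACCaucugaaaucgguu
miR-101-3p annotated: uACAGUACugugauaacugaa
miR-101-3p −1: gUACAGUAcugugauaacugaa
miR-1307-3p annotated: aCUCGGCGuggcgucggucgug
miR-1307-3p +1: cUCGGCGUggcgucggucgugg
miR-10a-5p annotated: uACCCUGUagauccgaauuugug
miR-10a-5p +1: aCCCUGUAgauccgaauuugug
miR-183-5p annotated: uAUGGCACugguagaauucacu
miR-183-5p +1: aUGGCACUgguagaauucacu
miR-9-5p annotated: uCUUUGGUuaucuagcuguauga
miR-9-5p +1: cUUUGGUUaucuagcuguauga
miR-142-3p annotated: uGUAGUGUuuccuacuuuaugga
miR-142-3p +1: gUAGUGUUuccuacuuuaugga
miR-140-3p annotated: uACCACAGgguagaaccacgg
miR-140-3p +1: aCCACAGGguagaaccacggac
miR-224-5p annotated: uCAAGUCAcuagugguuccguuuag
miR-224-5p +1: cAAGUCACuagugguuccguuuag
miR-24-2-5p annotated: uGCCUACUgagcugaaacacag
miR-24-2-5p −1: gUGCCUACugagcugaaacacagu
miR-148b-5p annotated: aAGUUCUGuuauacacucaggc
miR-148b-5p −1: gAAGUUCUguuauacacucaggc

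Shifted isoforms held 125037 counts, 3.45% of the library (3.43 to 3.47%). Their counts were spread unevenly: the median isoform carried 33 counts and the most abundant one 15214. A further 1455 shifted isoforms below 10 counts held 3779 counts in all, 0.104% of the library.

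Included in these totals are paired names that, judged by their counts, carry the same reads. They were found from reverse-complement annotated sequences or, for the miR-486 and miR-3150 names, from the counts alone. Genome positions were not used to find them. Many lie on opposite strands of the same locus, but miR-625-5p and miR-625-3p, both arms of MIR625, lie on the plus strand. Such a pair has the same counts, or a multiple of them, with the ends exchanged, so the 5′ offset of one name is set by the 3′ offset of the other. There were 66 such names in 33 pairs, with 119 of the 461 isoforms and 50.8% of the shifted counts. The totals above hold their reads more than once, so they are not numbers of separate reads and the interval above is too narrow. MiR-3184-5p and miR-423-3p show the pattern, and their annotated sequences and the leading shifted isoform of miR-3184-5p are printed for that reason.
miR-423-3p annotated: aGCUCGGUcugaggccccucagu
miR-3184-5p annotated: uGAGGGGCcucagaccgagcuuuu
miR-3184-5p −2: aCUGAGGGgccucagaccgagcu

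MiR-423-3p lies at chr17:30117131-30117153 on the plus strand of GRCh38.p14 and miR-3184-5p at chr17:30117128-30117151 on the minus strand, both within the span of the protein-coding gene NSRP1. The printed miR-3184-5p isoform lost 3 bases at its 3′ end, covers the same bases as annotated miR-423-3p and carried 5056 of the 11611 counts of its name, 43.5% (42.7 to 44.5%). In all, 84.9% of the miR-3184-5p counts were shifted, against 23.0% of the 11586 counts of miR-423-3p. Which strand the reads came from cannot be told apart from the counts.

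The most abundant shifted isoform of the library belongs to such a pair. MiR-3529-3p at +1 carried 15214 counts, 8.92% of its 170478, and its partner is miR-7-5p, a microRNA of neurons and endocrine cells, for which 0.0870% of 511426 counts were shifted. MiR-7-5p has 3 RefSeq loci, and its total was 3 times that of its partner. MiR-3074-5p carried 8489 counts at −2, 49.7% of its 17071. It mirrors miR-24-3p, which carried 34142 counts, 2 times as many, with 0.398% shifted. MiR-3158-5p carried 3248 counts at −1, 75.9% of its 4280, whereas its partner miR-3158-3p had 3.32% shifted. MiR-103b had 23.6% shifted and miR-103a-3p, with the same 28796 counts, 1.85%. For miR-203a-3p, a microRNA of epidermis, 47.5% of 1922 counts were shifted, mostly at +1, and 93.6% for its partner miR-203b-5p. MiR-374c-3p carried 918 counts at +1, 55.3% of its 1660. Within each pair named with both shares, the share differed between the names although the counts were mirrored.

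Without the mirrored names, 342 isoforms of 134 names remained, with 61570 of 2790904 counts, 2.21% (2.19 to 2.22%). The values that follow leave these names out unless they say otherwise.

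Most shifts were by 1 base. Isoforms at +1 held 30948 counts, 50.3% of the shifted counts, and isoforms at −1 held 19185, 31.2%. Isoforms at −2 held 9136, of which 95.7% came from miR-151a-3p alone. Isoforms at +2 held 1649 counts, at +3 406, at +4 109 and at +5 53. The mirrored names raised all of these counts but lowered the shares at +1 and −1. With them, +1 held 54840 counts, 43.9% of the shifted counts, −1 held 32719, 26.2%, and −2 held 25413, 20.3%. Of the counts at −2, miR-151a-3p then gave 34.4%. The offsets +2, +3, +4 and +5 then held 6888, 3855, 755 and 336 counts, led in each case by miR-3529-3p. With the mirrored names kept, moves by 1 base made up 70.0% of the shifted counts, against 81.4% without them and 94.7% also without miR-151a-3p.

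The 3p arm, whose 5′ end DICER sets, was shifted more often than the 5p arm. Shifted isoforms held 5.15% of the 798870 counts of 3p names and 1.03% of the 1924844 counts of 5p names. With the mirrored names kept the shares were 6.67% and 1.91%. The summed 5p share rests in part on miR-21-5p, which alone holds 1174398 counts: with the mirrored names kept and miR-21-5p left out, it was 3.41%, still below the 3p share of 6.67%. Taken per name, over names of at least 100 counts, the median share was 4.10% for 91 names of the 3p arm and 0.251% for 101 names of the 5p arm, and with the mirrored names 4.17% for 100 names and 0.324% for 109. At least 10% of the counts were shifted in 26 of these 3p names and in 16 of the 5p names, and under 1% in 25 and 65 of them. Names share this 1 library and are not replicates, so no test was made of the difference.

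Direction also differed between the arms. In the 5p arm, isoforms that had lost bases held 86.1% of the shifted counts, and 35 names lost more than they gained against 17 that gained more. With the mirrored names kept, that share was 40.4%, so the 5p direction by counts depends on them, while 38 names lost more and 27 gained more. In the 3p arm, lost bases made up 38.5% of the shifted counts, 59.1% with the mirrored names, and 52.0% without both these and miR-151a-3p. Counted by names, 42 of the 3p names lost more bases and 26 gained more, and 50 and 35 with the mirrored names. Both directions occurred within the same name in 19 of the 134 names, and in 31 of 165 with the mirrored names.

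Among 3p names that gained a base, miR-29a-3p led by counts. MiR-29a-3p, of a family known for repressing collagens and other matrix genes, lies at chr7:130876748-130876769 on the minus strand, in no other RefSeq gene. It carried 6005 of its 11527 counts at −1, 52.1%, and 47.9% at the annotated end. The isoform printed above, with 1 base lost at the 3′ end, held 5183 counts, 45.0% of the name (44.1 to 45.9%). Its family member miR-29b-3p has the same first 8 bases but carried only 40 of 2022 counts at −1, 1.98%. The members of the family thus differed in where their reads began, with intervals for all shifted counts of 51.2 to 53.0% for miR-29a-3p and 3.55 to 5.33% for miR-29b-3p. MiR-29b-3p has 2 RefSeq loci, so its counts may hold the same reads more than once and its interval may be too narrow.

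MiR-101-3p, which targets the Polycomb methyltransferase EZH2, carried 39.9% of its 14110 counts at −1. The leading isoform held 3468 counts, 24.6%, and the next, 1 base shorter at the 3′ end, held 1512, 10.7%. MiR-101-3p has 2 RefSeq loci. One of them, MIR101-2, places it at chr9:4850345-4850365 on the plus strand, within the span of the protein-coding gene RCL1.

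MiR-151a-3p carried the largest count of shifted reads outside the mirrored names, although they were a small part of it. Of its 176503 counts 7.00% were shifted (6.88 to 7.12%): 4.96% at −2, 1.55% at −1 and 0.445% at +1. Its leading shifted isoform, at −2 with the annotated 3′ end, held 7361 counts.

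Among 3p names that lost a base, miR-1307-3p led. It lies at chr10:103394301-103394322 on the minus strand, within the span of ATP5MK, a gene for a small subunit of the mitochondrial ATP synthase. At +1 stood 39.1% of its 12300 counts, and the leading isoform, which also gained 1 base at the 3′ end, held 3368. MiR-378a-3p, from the span of the metabolic coactivator gene PPARGC1B on chromosome 5, carried 8.76% of its 19859 counts at +1. Its family member miR-378c had 0.340% of 14990 counts shifted in all. MiR-92a-3p has 2 RefSeq loci, MIR92A1 in the miR-17-92 cluster on chromosome 13 and MIR92A2 on the X chromosome. It carried 850 counts in its leading isoform at +1, 2.13% of its 39841.

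The miR-200 family, which holds back the epithelial to mesenchymal transition by repressing ZEB1 and ZEB2, moved in opposite directions in different members. MiR-200b-3p carried 5.98% of its 38626 counts at +1 and 0.0492% at −1. MiR-200c-3p carried 1.57% of its 31291 counts at −1 and 0.0607% at +1, and miR-429 5.16% of its 2267 at −1. MiR-141-3p followed miR-200c-3p, with 1.64% shifted of 3232 counts, nearly all at −1. MiR-200a-3p had 0.429% of 11191 shifted, with 0.232% at +1 and 0.143% at −1. Its opposite arm, miR-200a-5p, had 9.01% of 8742 counts at +1. The family's seeds therefore split further among the shifted reads. They begin mostly 1 base earlier for some members and 1 base later for miR-200b-3p and, in few reads, miR-200a-3p.

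MiR-142-3p is best known from blood cells and was 1 of the few names with more shifted than unshifted reads. It carried 48.9% of its 2697 counts at +1 and 48.8% at the annotated end, with 2.19% at +2. The leading isoform, with the annotated 3′ end, held 1161 counts, 43.0% (41.2 to 44.9%). The other arm of the hairpin was shifted too: miR-142-5p carried 67 of its 212 counts in 1 isoform at −2, and 48.6% of its counts were shifted in all. The counts of other blood microRNAs were 0 for miR-223-3p, miR-150-5p and miR-144-3p and 1 for miR-451a. They were 94 for miR-486-5p, a mirrored name whose partner miR-486-3p has the same total. The 5 main products of the miR-200 family, which mark epithelium, summed to 86607. From which cells the miR-142 reads came was not tested. MiR-126-3p, known from endothelium, had reads on both sides of the annotated end, with 17.4% of its 2113 counts at −1 and 12.2% at +1. These names were chosen for the check after their values were seen.

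MiR-140-3p, from the span of WWP2 on chromosome 16 and known from cartilage, had 66.5% of its counts shifted (62.8 to 69.9%). Of its 683 counts, 61.5% lay at +1. The printed isoform, 2 bases longer at the 3′ end, held 200 of them, and isoforms 1 and 3 bases longer held 96 and 92. MiR-361-3p, chosen after its values were seen, carried 459 of 1088 counts in 1 isoform at +1 with 2 bases added at the 3′ end.

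In the 5p arm the leading shifts were losses of 1 base. MiR-10a and miR-10b lie in HOX clusters, and miR-10a-5p is at chr17:48579904-48579926 on the minus strand, within the span of HOXB3. At +1 it carried 32.6% of its 12011 counts, and the isoform with the annotated 3′ end held 3131, 26.1% (25.3 to 26.9%). MiR-10b-5p, its relative, carried 21.6% of 2675 counts at +1. The more distant family members miR-99b-5p and miR-100-5p carried 0.968% of 12185 and 0.222% of 151109 counts there. The intervals of the shares shifted in all, 32.8 to 34.5%, 20.1 to 23.2%, 0.877 to 1.24% and 0.227 to 0.277%, do not overlap, and the order from miR-10a-5p down to miR-100-5p is an order within this library.

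MiR-183-5p belongs to a cluster with miR-182-5p and miR-96-5p that is known from sensory organs. It lies at chr7:129774967-129774988 on the minus strand. At +1 stood 32.6% of its 9952 counts, in isoforms that ended 1 base beyond the annotated 3′ end (1427 counts) or at it (1335 counts). For miR-182-5p 0.143% of 10459 counts were shifted and for miR-96-5p 0.0538% of 3721. One member of the cluster was thus shifted in many of its reads, and no shifted isoform of the others reached 10 counts.

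MiR-9-5p, a microRNA of neural progenitors with 3 RefSeq loci, carried 9.73% of its 32138 counts at +1. The isoforms with the annotated 3′ end and with 1 base fewer held 1509 counts each. Its other arm, miR-9-3p, carried 16.7% of 951 counts at +1. MiR-192-5p, known from gut and liver, carried 32.5% of 1172 counts at +1. MiR-455-5p was unlike these in losing 2 bases, with 10.4% of its 2402 counts at +2. Both of the latter were chosen after their values were seen.

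In 4 names with between 100 and 1000 counts, outside the mirrored names, the annotated end held under 5% of the counts. MiR-224-5p, from the span of the GABA receptor gene GABRE on the X chromosome, had 98.4% of its 495 counts at +1 and 0 at the annotated end, which allows a share of up to 0.606%. MiR-24-2-5p had 95.4% of 504 counts at −1, and miR-148b-5p 95.6% of 316 counts at −1. MiR-10401-3p had 85.7% of 258 counts at −1. For these names the annotated seed is the rare one in this library. MiR-148b-5p is the less abundant arm of its hairpin: its partner miR-148b-3p carried 7365 counts with 0.0679% shifted. Other names of at least 100 counts with a shifted majority were miR-935 (85.0%), miR-449c-5p (81.2%), miR-641 (67.8%), miR-16-2-3p (59.7%), miR-425-3p (56.3%) and miR-132-5p (50.5%). Apart from miR-24-2-5p and miR-148b-5p, the names of these sentences were chosen after their values were seen.

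In all, 13 of the 210 names of at least 100 counts had a shifted majority, and 20 of 228 with the mirrored names. Of the 98 names of at least 1000 counts only miR-29a-3p and miR-142-3p did, and 8 of 114 with the mirrored names. The others of these 8 were miR-3074-5p, miR-3184-5p, miR-3184-3p, miR-3158-5p, miR-203b-5p and miR-374c-3p. The median name of at least 100 counts had 1.43% of its counts shifted, and 35 of the 210 had none.

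Several of the most abundant microRNAs kept their annotated 5′ ends almost throughout, while others of like abundance did not, such as miR-151a-3p above (7.00% shifted), miR-200b-3p (6.44%) and miR-9-5p (10.5%). MiR-21-5p, the oncogenic microRNA that leads this library, had 0.237% of its 1174398 counts shifted (0.229 to 0.246%). Even so it gave 14 of the 461 isoforms, with 0.131% of its counts at +1 and 0.0811% at −1. MiR-148a-3p had 0.0714% of 253510 counts shifted, mostly at +2, let-7a-5p 0.155% of 66347, and miR-222-3p 0.915% of 24695. Those of miR-222-3p also lay mainly at +2. MiR-411-5p carried only 21 counts and none of its isoforms was included.

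For 40 microRNAs, some of which have several loci, both the 5p and the 3p name had at least 100 counts. The median share of shifted counts was 0.884% for the more abundant arm and 3.39% for the less abundant arm. The less abundant arm had the higher share in 22 of them and the more abundant arm in 17. It was the 3p arm in 23 of the 40, so abundance and arm are not fully separated here. For let-7a, for example, 0.155% of the 5p counts were shifted and 31.6% of the 468 counts of the 3p arm.

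The seeds made by the shifts were compared with the annotated seeds of all human microRNAs in the reference. With the mirrored names kept, 14 of 55 names with a seed at −1 acquired a seed that another microRNA has in its annotated form, 25.5%, and 18 of 87 at +1, 20.7%. When every annotated microRNA was moved by the same offset, 22.6% and 24.5% did, so the shares at 1 base lay near this background. At −2 it was 2 of 17 names against 21.8%, and at +2 2 of 29 names against 20.8%. Without the mirrored names it was 11 of 42 names at −1, 26.2%, and 14 of 69 at +1, 20.3%. At −2 it was then 0 of 5 and at +2 0 of 20, so the shared seeds at 2 bases were all of mirrored names.

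Some of these shared seeds are those of well-known families. MiR-449c-5p at +1, 92 counts, has the seed GGCAGUG of miR-34a-5p, miR-449a and miR-449b-5p, the family that responds to p53. MiR-500a-3p at −1 has the seed of miR-501-3p and miR-502-3p, and miR-502-3p at +1 that of miR-500a-3p. MiR-106a-5p at +1, 51 counts, has the seed AAGUGCU of the miR-302 and miR-372 group, known from embryonic stem cells. The abundant shifted isoforms led elsewhere. MiR-29a-3p at −1 has the seed UAGCACC, shared with miR-5682, which had 0 counts here, and that of miR-21-5p at −1, UAGCUUA, is shared with miR-5579-3p, also at 0.

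Near-identical family members can exchange reads through such shifts, because a shifted isoform of one name can spell an isoform of another. The miR-500a-3p isoform at −1 with 2 bases lost at the 3′ end carried 110 counts, and the same sequence was listed under miR-502-3p with 70. The miR-502-3p isoform at +1 carried 71 counts, and its sequence under miR-500a-3p 8. The miR-106a-5p isoform at +1 carried 51 counts and the same letters under miR-17-5p 3. How the reads were divided between such names is not given in the sources used here, so the values of these names are uncertain.
miR-500a-3p −1: aAUGCACCugggcaaggauuc
miR-502-3p +1: aUGCACCUgggcaaggauuc
miR-106a-5p +1: aAAGUGCUuacagugcagguag

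The first base of the isoforms, which sits in a pocket of Argonaute that favours U and A, differed with the shift. At the annotated 5′ end, 84.5% of the counts began with U, as did 43.9% of 312 names. At +1, 3.19% of the counts did, with A at 51.0% and C at 39.6%, and 15 of 69 names began with U, 21.7%. At −1, 1.35% of the counts began with U, with C at 47.9% and G at 47.4%, and 8 of 41 names began with U, 19.5%. Over all annotated microRNAs, U stood at 36.8% of the annotated starts, 22.2% of the positions 1 base later and 16.8% of those 1 base earlier. By names the share of U thus lay near that of the neighbouring positions, but other bases lay further from it. At −1, C began 43.9% of the names against 30.9% of the annotated microRNAs, and G 19.5% against 32.6%. At +1, A began 37.7% of the names against 26.5%, and G 17.4% against 29.0%. The shares by counts rest on few names, such as miR-29a-3p, which begins with C at −1, and miR-101-3p, which begins with G. At the annotated end, miR-21-5p, which begins with U, had 1171609 counts, against 2110538 for all names beginning with U. First bases were computed only without the mirrored names.

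The 3′ end was not used to choose the isoforms. Of the shifted counts, 50.4% had the annotated 3′ end, against 44.0% of the unshifted counts of the same names. The latter share rests in large part on miR-21-5p, with 1171609 unshifted counts against 2510608 for all these names. Of its unshifted counts, 81% had 1 base added at the 3′ end, so the comparison does not describe the names in general. Among isoforms at +1, 41.8% of the counts were longer at the 3′ end and 12.0% shorter. Among those at −1, 4.51% were longer and 49.5% shorter, so that 41.1% of the −1 counts and 33.8% of the +1 counts kept the annotated length. With the mirrored names, 23.9% of the +1 counts were longer at the 3′ end and 10.4% shorter, and 19.4% kept the annotated length. At −1, 2.64% were then longer and 61.6% shorter, and 45.6% kept it. The share of all shifted counts with the annotated 3′ end was 52.1% with them, against 53.8% of the unshifted counts.

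The 3′ end was also set against that of the unshifted isoforms of the same name, without the mirrored names. Names with at least 50 counts at an offset were taken. Those with few or no unshifted counts, such as miR-224-5p, miR-24-2-5p and miR-148b-5p, were left out. At +1 the 3′ end lay on average further out in 29 of 34 names, with a median difference of −0.23 bases lost. It lay further in for 17 of 23 names at −1, with a median of 0.12. For 4 of 4 names at −2 it lay further in, and for 10 of 11 at +2 further out. The most frequent 3′ end was the same as that of the unshifted isoforms in 29 of the 34 names and 16 of the 23. MiR-101-3p showed the tendency clearly, with a mean of −0.32 bases lost at the 3′ end of unshifted isoforms and 0.56 for those at −1. MiR-192-5p, with −0.53 and −1.76, showed it at +1. MiR-29a-3p went the other way, with 1.22 and 1.03, as did miR-126-3p at −1, with 0.39 and 0.12.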

How the data were processed

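Small RNA of 1 wild-type HCT116 library was used. The authors deposited raw read counts per microRNA isoform, and, per the file headers, how many bases each end lies from that of the annotated microRNA. Of 7376 isoforms listed, 2967 had a blank count and were left out. The tools were Bowtie2, STAR and cutadapt with GRCh38, per the submitters' processing notes; for their roles and versions, and for how reads matching several names were counted, nothing is stated in the sources used here. Names with several loci can hold the same reads more than once: 94 of the isoforms, in 31 names, have several RefSeq loci.

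The sign of the offsets was settled from the counts. It was checked in 5 pairs of names of at least 100 counts, picked for overlapping reverse-complement sequences with different ends and for totals that were equal or multiples to within 2%, without use of the offsets. If a positive offset is a base lost at either end, 100% of their counts lay where the partner's annotation places them. Under the other readings it was at most 21.3%. A pair was called mirrored, under this sign, when at least 90% of the counts of its less abundant name had a counterpart with exchanged ends within 10%, after division of the partner's counts by the rounded ratio of the totals (3 for miR-7-5p, 2 for miR-24-3p).

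Sequences, seeds (bases 2 to 8) and positions are from RefSeq tables of GRCh38.p14, which held 146 of the 165 names. A gene span says nothing of exon, intron or strand. Shares of a name use all of its isoforms, whatever their count. Shares, medians and Wilson 95% intervals were computed with Python 3.11.15, pandas 2.3.3 and scipy 1.17.1, and the scripts were tested on simulated counts.

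The isoforms, lists and rules were chosen with earlier results of these data known. Isoforms were named when among the 10 highest counts at −1 or +1 in an arm or among the 6 highest with an offset of at least 2. Names of at least 1000 counts with a shifted majority, and a list of 16 microRNAs, were added. Family members and partners of these, and names described as chosen after their values were seen, were named beyond that rule. Alternatives were other count minimums, division by loci, and leaving out mirrored names, miR-21-5p or miR-151a-3p.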

Additional observations from a re-analysis of the deposited data

How the results depend on the processing

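The share of shifted counts, 3.45%, was 3.55% with no count minimum, 3.15% with a minimum of 100, 3.69% with counts divided by loci, 4.98% without miR-21-5p, 2.21% without the mirrored names and 1.88% also without miR-151a-3p. In the same order the 5p share, 1.91%, was 1.96%, 1.72%, 2.11%, 3.41%, 1.03% and 1.03%. The 3p share, 6.67%, was 6.85%, 6.16%, 6.78%, 6.67%, 5.15% and 4.63%, and stayed above the 5p share in each. Lost bases, 53.3% of shifted counts, were 52.5% with the minimum of 100, 53.0% without miR-21-5p, 53.9% without the mirrored names and 65.6% also without miR-151a-3p. Moves by 1 base, 70.0%, were 70.3% with the minimum of 100, 68.2% with counts divided by loci, 69.6% without miR-21-5p, 81.4% without the mirrored names and 94.7% also without miR-151a-3p. Leaving out miR-151a-3p was chosen after seeing the data. Names with a shifted majority, 20 of those with at least 100 counts, were 8 at a minimum of 1000, 60 at 20 and 13 without the mirrored names. With isoforms of at least 100 counts, names with a seed shared with another microRNA fell from 22.0% to 14.5% of those at any offset, those starting with U from 4.84% to 1.04% of shifted counts, and those with the annotated 3′ end rose from 50.4% to 54.2% of them. Apart from the number of isoforms each setting keeps, the cause was not tested. Depth limits the rare names: with 100 counts a share has a wide interval. No paired analysis was possible because the small RNA data are 1 library with no replicate number.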
